A study of Sus scrofa with 13 samples.

Results

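The apolipoprotein and lipoprotein assembly genes described here are APOE, APOC3, APOA1, APOA4, APOA5, APOB, APOH, APOM, MTTP and LCAT. They were taken by symbol from the 35670 genes of a pig liver count table, in which each had 1 row, and all 10 were among the 16481 genes that passed the filter on low counts. Bulk RNA sequencing covered 13 liver libraries in a porcine model of hepatic ischemia-reperfusion injury, in which blood flow to the liver was clamped off for 45 min and then restored. The question was whether human bone marrow mesenchymal stromal cells (BM-MSCs), and the vessel they are given through, alter the injured liver. Baseline is represented by 2 libraries, replicates 1a and 2, from liver without ischemia, reperfusion or cells. Ischemic controls are 3 livers with ischemia and 6 h of reperfusion and no cells. A further 8 livers went through the same clamping and reperfusion with 3 M (mega) human BM-MSCs given per kg body weight, 4 of them by the hepatic artery (arterial) and 4 by the portal vein (portal). In the study each library at 6 h stands for a different pig, but the labels name no animal and do not say whether the baseline libraries come from pigs that also gave a later one, so p-values measure the spread between these libraries. The infused cells are human and the host liver is porcine, and the reads were mapped to the pig genome only.

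The liver packages triglyceride and cholesterol into very low density lipoprotein (VLDL) and makes most of the protein of high density lipoprotein (HDL). APOB is the structural protein of VLDL, and the transfer protein encoded by MTTP loads it with lipid in the endoplasmic reticulum. Exchangeable apolipoproteins such as APOA1, APOA4, APOA5, APOC3 and APOE ride on the particle surface and steer its lipolysis, its maturation in plasma and its uptake by receptors.

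Positions come from RefSeq gene models on the Sscrofa11.1 assembly, matched by symbol, and each is the whole gene with exons, introns and untranslated parts. On chromosome 9 APOA5 (chr9:44177834-44180880), APOA4 (chr9:44201587-44204072), APOC3 (chr9:44211171-44213538) and APOA1 (chr9:44216481-44218360) lie within 40527 bp of each other, with LOC106504887 as the only other gene wholly inside that stretch. On chromosome 6 LCAT lies at chr6:28550356-28553561 and APOE at chr6:51373113-51375333, the latter 3181 bp from TOMM40. APOB is at chr3:117250096-117316200, APOM at chr7:23768974-23773324, MTTP at chr8:120820660-120871468 and APOH at chr12:12827195-12839172. APOA4 overlaps LOC106504887 and APOA5 overlaps ZPR1, and since the libraries do not mark strand, reads from such a pair cannot be told apart in the overlap. Gene span, from the first to the last base with introns, was 1880 to 4351 bp for 7 of the genes and longer for APOH, MTTP and APOB, as is described further on.

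Total counts were between 18975413 in control 2 and 35949178 in arterial 2, with a median of 30260803, and the lowest raw count of any member was 1330, for MTTP in control 2, so counting error is small beside the spread between livers. Normalized counts are reads divided by the size factor of the library, which takes out differences in depth. A principal component computed over the 500 most variable genes of the livers at 6 h, with the 10 genes left out, held 60.6% of the variance and set 4 libraries apart. Its score was 17.0 in control 2, 51.8 in arterial 1, 102 in portal 1 and 45.2 in portal 4, and between -36.9 and -20.8 in the other livers at 6 h. At equal depth the number of genes detected was 16993 in control 2, 15385 in arterial 1, 13572 in portal 1 and 14252 in portal 4, and in the other 9 libraries it was between 15704 and 19388. Control 2, portal 1 and portal 4 also had the lowest total counts, while arterial 1 was at the median. The tissue was checked by 12 hepatocyte markers, all of which were detected in every library, with a summed level between 29113 and 98555 CPM (counts scaled to the same total in every library).

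The 10 genes together took 2.18% to 10.8% of all counts, and the share followed single livers more than groups. At baseline it was 2.20% and 2.18%. In ischemic controls 1, 2 and 3 it was 2.83%, 10.8% and 3.74%. After arterial infusion it was 9.02%, 2.44%, 2.70% and 2.77%, and after portal infusion 9.51%, 2.21%, 2.50% and 6.68%, in replicate order. Control 2, arterial 1, portal 1 and portal 4 were the 4 highest, and the lowest control was above both baseline livers. The mean was 2.19% ± 0.0129 (SD, n = 2) at baseline, 5.80% ± 4.37 (n = 3) in controls, 4.23% ± 3.20 (n = 4) after arterial and 5.22% ± 3.51 (n = 4) after portal infusion, and without control 2 the controls' mean was 3.29%. Shares are shares of reads, which rise with transcript length as well as with transcript number, so they are not compared between genes here. ALB, the gene of serum albumin, did not follow the 10 genes, since its share was 1.60% in control 2, 3.82% in arterial 1, 2.01% in portal 1 and 1.78% in portal 4, against 2.42% to 7.50% in the other 9 libraries. In bulk tissue, fewer cells of a type and less RNA per cell cannot be told apart.

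**Figure D1:**
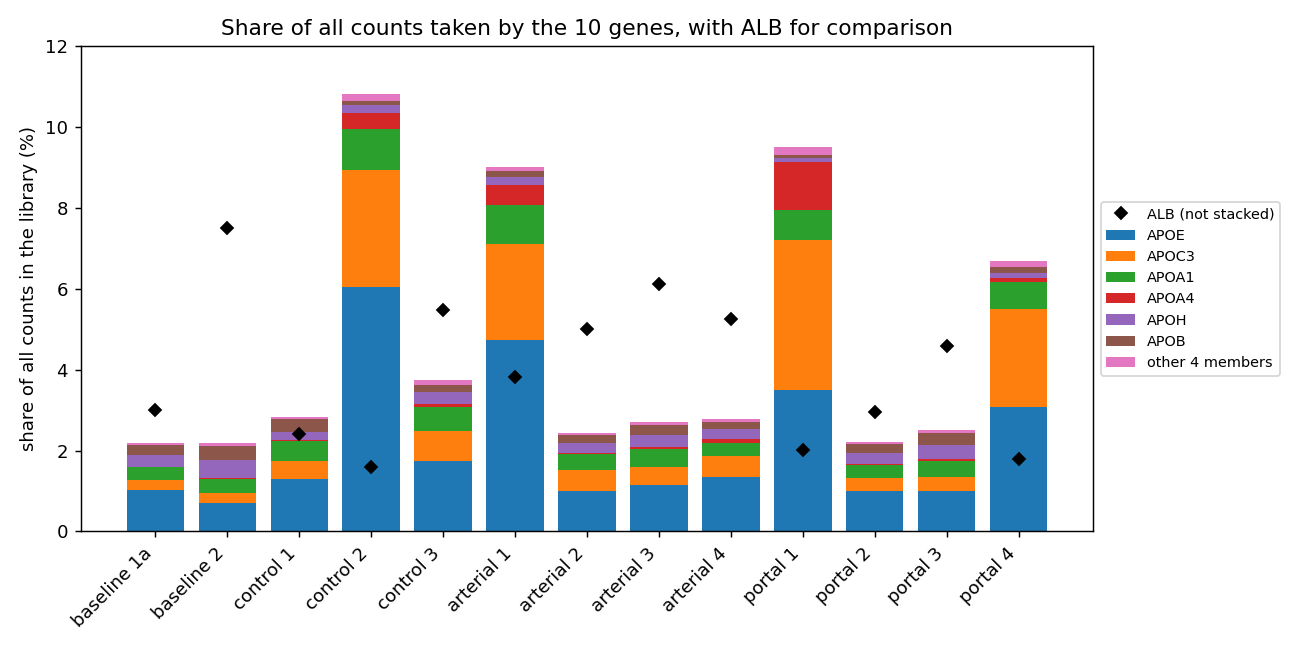
Stacked bars give the share of all counts (%) taken by the 10 genes in each of the 13 libraries, with the 6 genes of largest share in colours of their own and the other 4 together, and black diamonds give the share of ALB. Control 2, arterial 1, portal 1 and portal 4 reach 6.68% to 10.8%, and the other 9 libraries lie between 2.18% and 3.74%.

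No member passed the threshold in any comparison. In edgeR's quasi-likelihood test over all genes tested, 0 of 10 members had an adjusted p under 0.05 in controls against baseline, where 0.0% of all genes did, and the same counts held for all infused livers against controls, arterial against controls, portal against controls and arterial against portal. At an unadjusted p under 0.05, these comparisons held 720, 353, 258, 460 and 396 of all genes in that order, and members were among them only in controls against baseline.

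Of the chromosome 9 cluster, APOA1 encodes the main protein of HDL and activates LCAT. Its normalized count was 76075 and 93789.8 at baseline and 132968, 339063 and 139116 in controls 1 to 3. In the arterial group it was 262295, 130786, 123758 and 81630.2, and in the portal group 191488, 93444, 110403 and 173161. Every control was above both baseline livers, controls 1 and 3 lay close together, and both infused groups overlapped the controls and the baseline livers. The log2 fold change of controls against baseline was 1.24 ± 0.61 (SE; edgeR unadjusted p = 0.0629, adjusted p = 0.978), and the exact two-sided permutation test gave p = 0.2, where 3 against 2 libraries cannot go below 0.1. Without control 2 the fold change was 0.71.

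APOC3 encodes an inhibitor of lipoprotein lipase that slows the clearance of triglyceride-rich particles. Baseline livers had normalized counts of 62545 and 75099, and controls had 115179, 956991 and 177197. Arterial livers 1 to 4 had 635856, 170557, 128158 and 132429, and portal livers 1 to 4 had 964264, 92435, 104676 and 634029.9. All 11 livers at 6 h were above both baseline livers, an order whose share over all genes was not counted. Within each group at 6 h the livers fell far apart, with control 2, arterial 1, portal 1 and portal 4 each over 3 times higher than any other library. In portal 1 no gene had more reads than APOC3, which took 3.73% of all counts. Controls against baseline gave a log2 fold change of 2.55 ± 1.18 (edgeR unadjusted p = 0.0477, adjusted p = 0.978; exact permutation p = 0.2), and it was 1.12 without control 2.

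APOA4 encodes an apolipoprotein of chylomicrons and HDL that the intestine makes in quantity and the liver can also make. It had the widest range of the 10 genes, 114-fold between the lowest and the highest library. At baseline its normalized count was 2675 and 7795, and in controls 3936, 128839 and 20444. After arterial infusion the values were 136119, 10884, 15790.3 and 27715, and after portal infusion 305147, 3336, 18678 and 26561. Portal 1, arterial 1 and control 2 stood far above the rest, portal 4 did not, and control 1 and portal 2 were within the baseline range. The log2 fold change of controls against baseline was 3.24 ± 1.76 (edgeR unadjusted p = 0.0867, adjusted p = 0.978; exact permutation p = 0.4), with the largest standard error of the 10 genes, and it was 1.25 without control 2. Of 8 enterocyte markers with a row, 3 to 5 were at 0 in each library, FABP2 and SI in all 13, and the others were detected. The summed level of the 8 was 19.8 to 250.5 CPM, with 250.5 in arterial 1, 208 in control 3, 153 in portal 1 and 53.0 in control 2. The part of these markers in the APOA4 values was not tested.

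APOA5 encodes a scarce apolipoprotein that promotes lipolysis of triglyceride-rich particles. Its normalized count was 5397 and 7860.2 at baseline, and 8692, 35693 and 18305 in controls. It was 15483, 7915, 10062 and 5114 in the arterial group and 34481, 3952, 11349 and 22482 in the portal group. Here control 3 was also high, above arterial 1, and arterial 4 and portal 2 were below both baseline livers. Controls against baseline gave a log2 fold change of 1.63 ± 0.78 (edgeR unadjusted p = 0.0546, adjusted p = 0.978; exact permutation p = 0.2), which was 1.06 without control 2. Arterial livers against controls gave the most negative difference of any member for a single route, -1.10 ± 0.61 (edgeR unadjusted p = 0.0926, adjusted p = 1.00; exact permutation p = 0.171), with 2 of 4 arterial livers below every control.

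APOE encodes a ligand of the LDL receptor family and is made by hepatocytes and by macrophages. Normalized counts of APOE were 241740.1 and 197489 at baseline and 337238, 2009239.8 and 417883 in controls. Arterial livers had 1279456, 336609, 331945 and 342805, and portal livers 901708, 294826, 295950.2 and 812498. All 11 livers at 6 h were above both baseline livers, 7 of them within the narrow range from 294826 to 417883, and control 2, arterial 1, portal 1 and portal 4 above that range. The share of all genes with that order was not counted. With all 11 set against baseline, the smallest adjusted p of a member in edgeR was 0.787, for APOE. By reads APOE was the top gene of control 2 and of arterial 1, with 6.05% and 4.74% of all counts, against 0.697% in baseline 2. Controls against baseline gave a log2 fold change of 2.02 ± 0.92 (edgeR unadjusted p = 0.0446, adjusted p = 0.978; exact permutation p = 0.3), and without control 2 it was 0.81. The 9 macrophage markers with a row summed to 1928 CPM in control 2, 922 in arterial 1, 935 in portal 1 and 929 in portal 4, and to between 708 and 2096 CPM in the other 9 libraries, and their part in the APOE values was not tested.

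**Figure D2:**
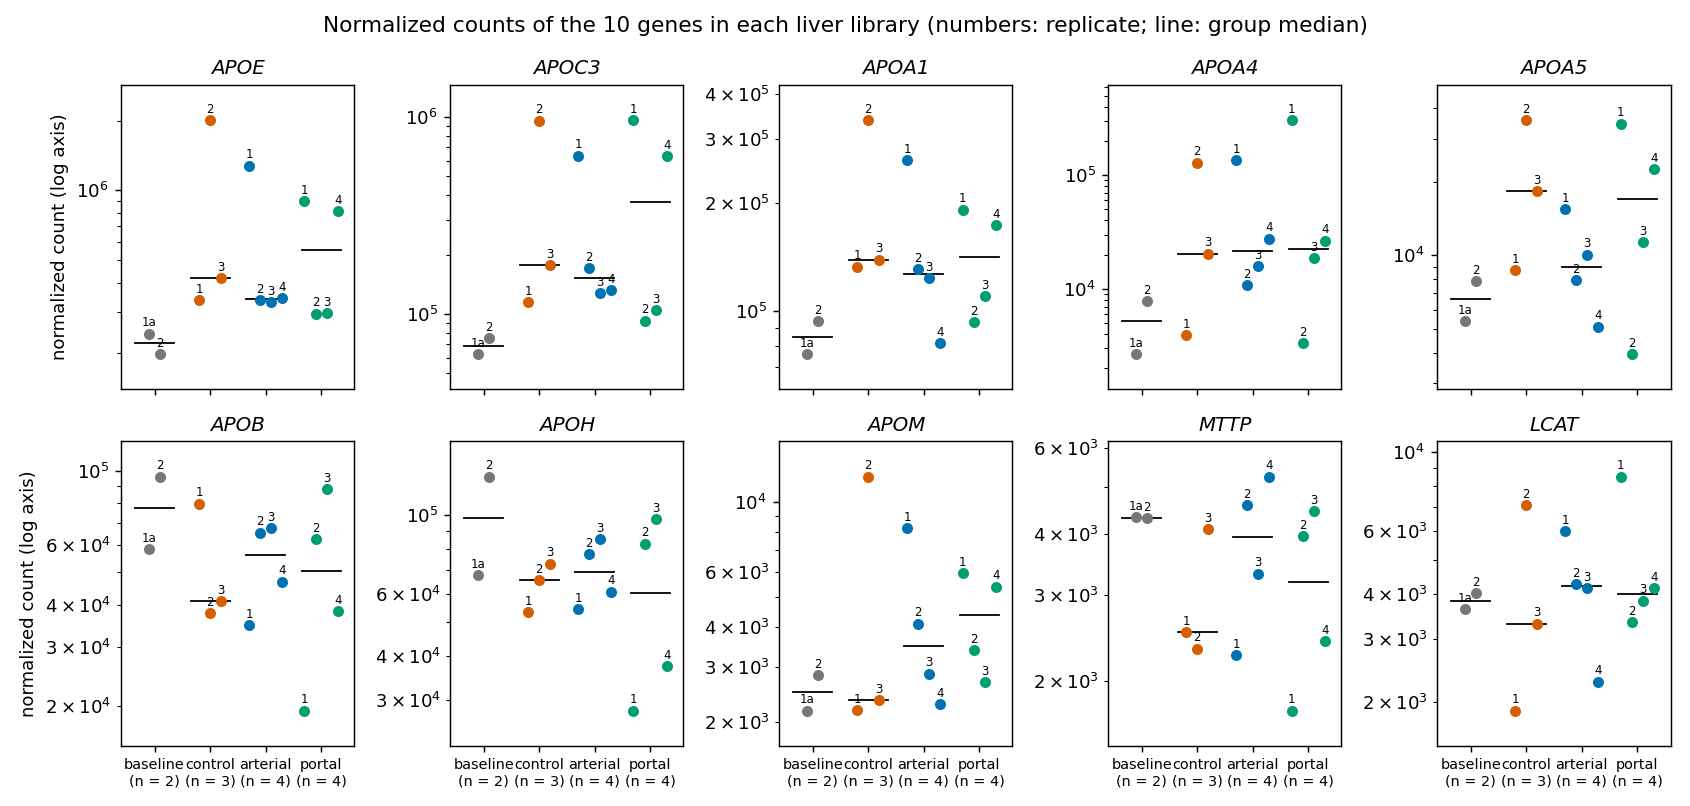
Each panel plots the normalized count of 1 gene on a log axis, with 1 point per library numbered by replicate and a line at the group median, for baseline (n = 2), ischemic controls (n = 3), arterial (n = 4) and portal infusion (n = 4). For APOE, APOC3, APOA1 and APOM the 4 highest points are control 2, arterial 1, portal 1 and portal 4, while for APOB, APOH and MTTP portal 1 is the lowest point.

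APOB and MTTP, which serve the assembly of VLDL, had negative log2 fold changes in controls against baseline, and neither passed the test. APOB had a normalized count of 58505 and 96136 at baseline and of 79882, 37659 and 41015 in controls. In arterial livers it was 34773, 65534, 67548 and 46776, and in portal livers 19328, 62474, 88214 and 38219. Portal 1, arterial 1, control 2 and portal 4 were the 4 lowest libraries, and the groups overlapped. Controls against baseline gave a log2 fold change of -0.53 ± 0.64 (edgeR unadjusted p = 0.421, adjusted p = 0.978; exact permutation p = 0.3), which was -0.17 without baseline 2.

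MTTP, whose product transfers lipid to nascent APOB, had the smallest range of the 10 genes, 3.02-fold. Its normalized count was 4332 and 4313 at baseline and 2521, 2329 and 4101 in controls. Arterial livers had 2261, 4586, 3318 and 5247, and portal livers 1737, 3965, 4462 and 2413. All 3 controls were below both baseline livers, control 3 by little, and portal 1, arterial 1, control 2 and portal 4 were again the 4 lowest. The log2 fold change of controls against baseline was -0.53 ± 0.51 (edgeR unadjusted p = 0.311, adjusted p = 0.978; exact permutation p = 0.2), and -0.35 without control 2.

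APOH encodes beta-2-glycoprotein I, a plasma protein that binds anionic phospholipid. Its normalized count was 67656 and 128383 at baseline, 53224, 65456 and 72922 in controls, 54362, 77632, 85538 and 60816 after arterial and 28072, 83085, 97645 and 37573 after portal infusion. Baseline 2 was the highest library and portal 1 and portal 4 were the lowest, while control 2 was inside the range of the other livers. Controls against baseline gave -0.62 ± 0.58 on the log2 scale (edgeR unadjusted p = 0.307, adjusted p = 0.978; exact permutation p = 0.2). The size of that difference rested on baseline 2, since it was -0.13 without that library.

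APOM encodes the carrier of sphingosine-1-phosphate on HDL. The normalized count of APOM was 2176 and 2819 at baseline, 2179, 11995 and 2350.1 in controls, 8249, 4107, 2849.8 and 2282 in arterial livers and 5922, 3381, 2684 and 5377 in portal livers. Controls 1 and 3 were within the baseline range and control 2 was the highest of the 13 libraries. The log2 fold change of controls against baseline, 1.10 ± 0.72 (edgeR unadjusted p = 0.147, adjusted p = 0.978; exact permutation p = 0.8), therefore rested on control 2 and was -0.11 without it.

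LCAT encodes the plasma enzyme that esterifies cholesterol on HDL. LCAT had normalized counts of 3640.0 and 4028 at baseline, 1895, 7115 and 3314 in controls, 5998, 4267, 4168 and 2283 in arterial livers and 8526, 3350.2, 3840.5 and 4168 in portal livers. Portal 1, control 2 and arterial 1 were the 3 highest and control 1 the lowest, so the controls spanned both sides of the baseline pair. Controls against baseline gave 0.07 ± 0.55 on the log2 scale (edgeR unadjusted p = 0.905, adjusted p = 0.997; exact permutation p = 0.8), and -0.53 without control 2.

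Over the 10 genes, controls against baseline gave 7 positive and 3 negative log2 fold changes with a median of 1.17, beside a median of 0.00481 over all genes tested. All 3 controls were above both baseline livers for 4 members (APOE, APOC3, APOA1 and APOA5), an order that 14.8% of all genes showed. All 3 were below both for MTTP, the order of 16.3% of all genes. At an unadjusted p under 0.05, 2 members, APOE and APOC3, were higher, as were 3.16% of all genes, and no member was lower. Control 2 set most of the size of these differences: without it the median over the 10 genes was 0.302 with 5 positive and 5 negative values, and the same 4 members, APOE, APOC3, APOA1 and APOA5, were above baseline in both remaining controls, as 20.7% of all genes then were. With control 2, arterial 1, portal 1 and portal 4 all left out, the log2 fold change of controls against baseline was 0.79 for APOE, 1.10 for APOC3, 0.70 for APOA1 and 1.04 for APOA5, and the smallest adjusted p of a member in edgeR was 0.295, for APOC3.

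In infused livers against controls no member reached an unadjusted p under 0.05. The log2 fold change was -0.69 ± 0.61 for APOE, -0.68 ± 0.53 for APOA5 and -0.50 ± 0.43 for APOA1, and 0.33 ± 1.15 for APOA4. For APOC3 it was -0.28 ± 0.78 and for APOM -0.33 ± 0.50, and for APOB, APOH, MTTP and LCAT it lay between -0.02 and 0.21. The median over the 10 genes was -0.15 with 4 positive and 6 negative values, beside -0.02 over all genes. No member had all 8 infused livers above or all below the 3 controls, orders that 0.225% and 0.34% of all genes showed, and the smallest exact permutation p was 0.315, for APOA1, where the design allows 0.00606. These signs depended on the controls used. Without control 2, 4 of them turned: the fold change was 0.54 for APOE, 1.17 for APOC3, 0.04 for APOA1 and 0.88 for APOM, and 8 of 10 members were positive. With all 4 libraries that stand apart left out it was -0.26 for APOE, -0.29 for APOC3, -0.80 for APOA5 and 0.44 for APOM, with 6 of 10 positive.

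No member separated the 2 routes of infusion. Arterial against portal livers gave log2 fold changes from -0.84 for APOA5 and -0.80 for APOA4 to 0.29 for MTTP, with 6 positive and 4 negative values and a median of 0.04, which was the median of all genes as well. The difference was 0.04 ± 0.66 for APOE, -0.68 ± 0.83 for APOC3, 0.04 ± 0.50 for APOB and 0.11 ± 0.46 for APOA1. The smallest exact permutation p was 0.429, for APOA5, where 4 against 4 allows 0.0286, and 1 arterial and 2 portal livers are among those that stand apart.

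**Figure D3:**
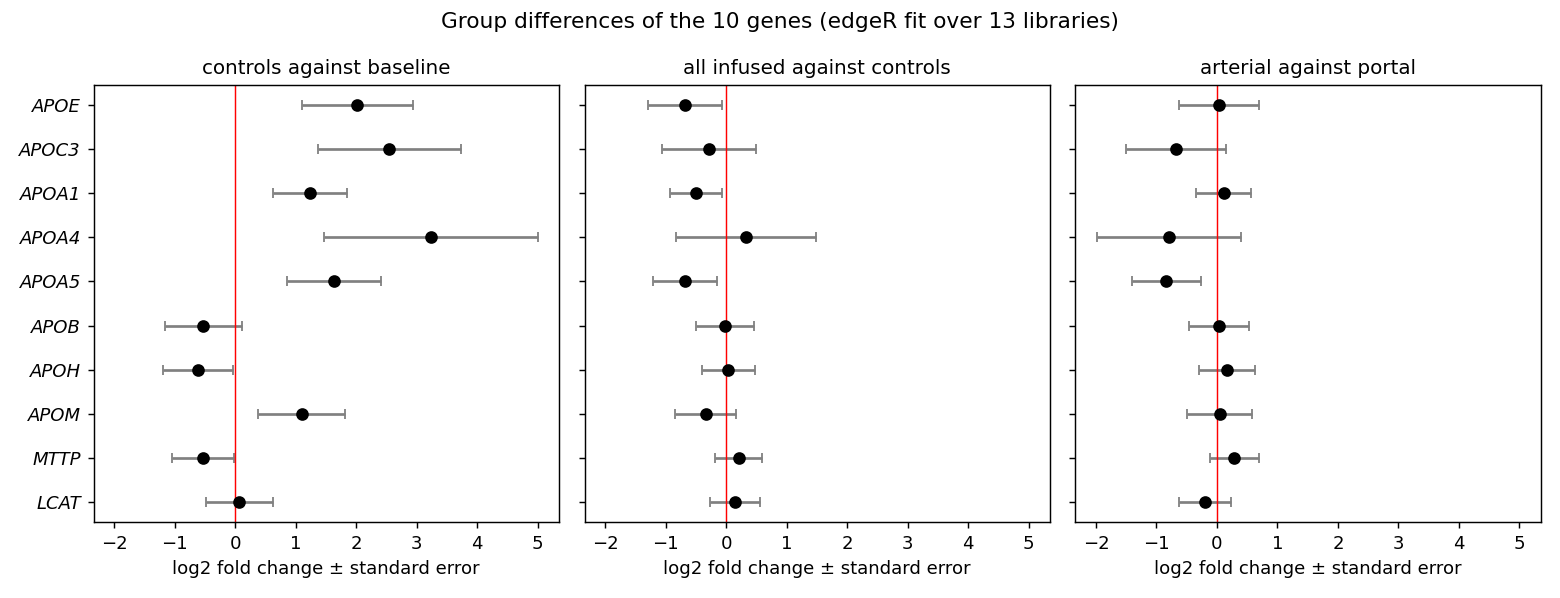
Points give the log2 fold change of each gene with its standard error from the edgeR fit over 13 libraries, for controls against baseline, all infused livers against controls and arterial against portal. The first panel holds the largest values, 3.24 for APOA4 and 2.55 for APOC3, which rest largely on control 2, and in the others most error bars reach or cross 0.

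Across the 13 libraries the members moved in 2 opposite sets. APOE ran with APOC3 (Pearson r = 0.954 of log2 normalized counts), APOA1 (0.943) and APOM (0.912), and APOB with APOH (0.822) and APOH with MTTP (0.741). APOC3 and APOB ran against each other (r = -0.834), as did APOC3 and MTTP (-0.816). These are descriptions over 13 libraries that differ in depth and in the levels of cell type markers, and 4 of the libraries carry much of the range. As a ratio of reads within a library, APOE to APOB was 2.05 and 4.13 in the baseline livers, between 3.35 and 10.2 in 7 livers at 6 h, and 53.4 in control 2, 36.8 in arterial 1, 46.7 in portal 1 and 21.3 in portal 4. Within the chromosome 9 cluster the ratio of APOC3 to APOA1 reads was 0.801 to 1.62 in the other 9 libraries and 2.82, 2.42, 5.04 and 3.66 in these 4, so neighbouring genes did not move by the same factor. The ratio of APOB to MTTP reads, 8.92 to 31.7 over all libraries, did not set the 4 libraries apart, which lay inside the range of the others.

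**Figure D4:**
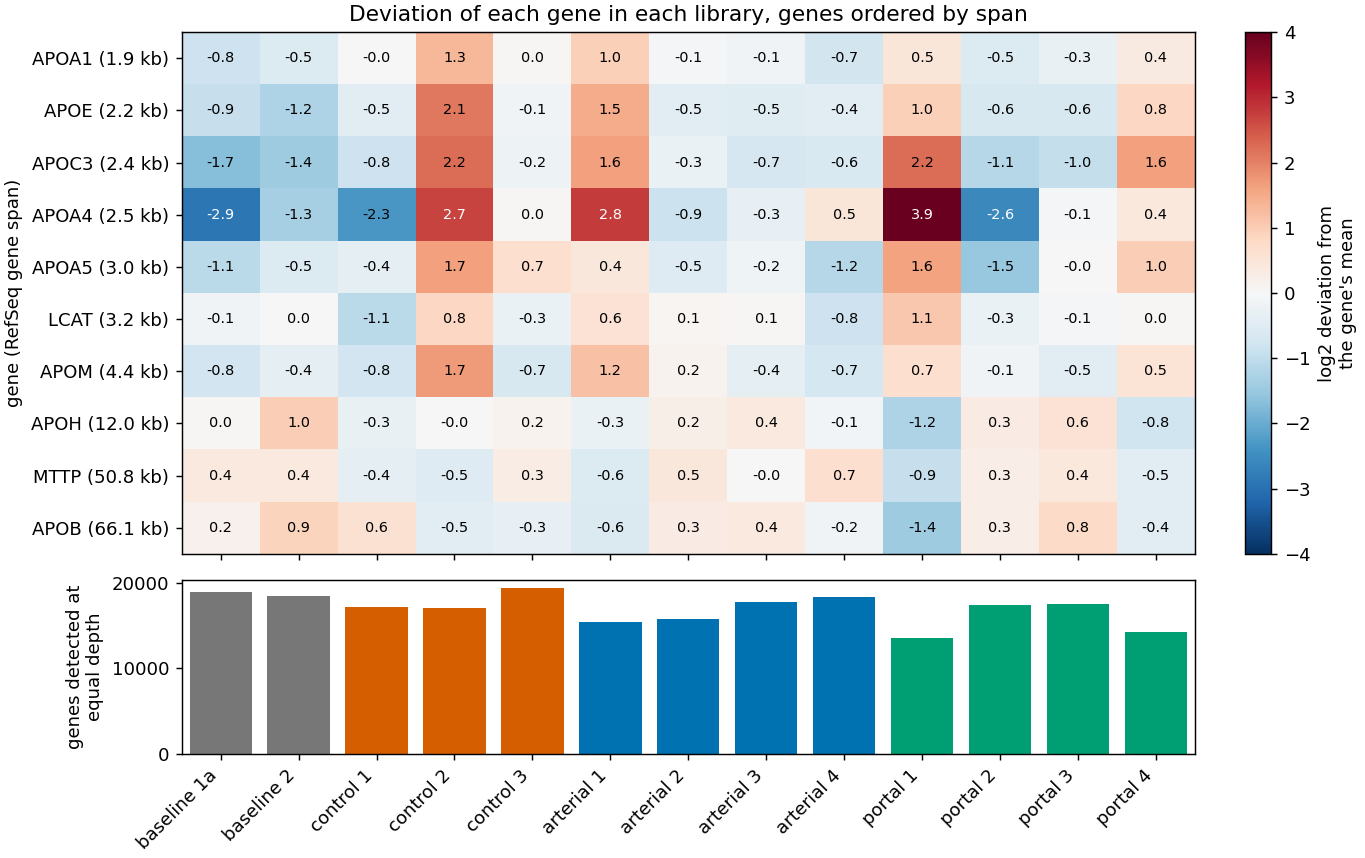
Colours and printed values give the log2 deviation of each gene in each library from the mean of that gene over 13 libraries, with genes ordered from the shortest span (APOA1, 1880 bp) to the longest (APOB, 66105 bp), and bars below give the genes detected at equal depth. Control 2, arterial 1, portal 1 and portal 4 are at or above 0 for the 7 shortest genes and at or below 0 for APOH, MTTP and APOB, and portal 1 has the fewest genes detected, 13572.

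Gene span divided the members in the same way. The 7 genes that were above their own mean in control 2, arterial 1 and portal 1 span 1880 to 4351 bp, and APOH, MTTP and APOB span 11978, 50809 and 66105 bp. Over all genes tested with a span (11884 of 12782 genes with a symbol, 93.0%), the median log2 deviation from the mean of 13 libraries for genes of up to 5 kb was 0.79 in control 2, 0.38 in arterial 1, 0.39 in portal 1 and 0.14 in portal 4. For genes over 50 kb it was -0.32, -0.21, -0.60 and -0.20 in the same order. For genes of 5 to 20 kb, the bin that holds APOH, it was 0.31, 0.08, 0.12 and -0.0020. APOH itself deviated by -0.0026, -0.27, -1.22 and -0.80, below the median of its bin in each of these 4 libraries. In the other 9 libraries, short genes had medians between -0.33 and 0.15 and long genes between 0.13 and 0.38, baseline 2 lying at the far end for both. APOE, APOC3 and APOB deviated further than these medians, APOE by 2.12, 1.47, 0.97 and 0.82, APOC3 by 2.24, 1.65, 2.25 and 1.64, and APOB by -0.47, -0.58, -1.43 and -0.44. Many single genes of a bin lie further out than its median, and the spread within bins was not computed. These values therefore do not set the members apart from other genes of like span. Short genes in general were thus higher in control 2 than in the baseline livers too, and the part of gene span, genes detected and depth in the members' values was not tested. Other cell type markers also moved in some of these livers: 4 erythroid markers summed to 875 CPM in control 2 and 702 in portal 1, but also 535 in arterial 4, against 34.0 to 193 elsewhere, and SLC4A1 was at 0 in 8 libraries. The 10 stellate and stromal markers had their 4 lowest sums in exactly the libraries that stand apart, 324 CPM in control 2, 251 in arterial 1, 312 in portal 1 and 187 in portal 4, against 359 to 1639.7 in the other 9. The 8 neutrophil markers were highest in control 2 (380.0 CPM) and arterial 1 (355), followed by arterial 4 (282), while portal 1 had 157 and portal 4 115, and the lowest value was 31.1, in arterial 3. The 9 endothelial markers summed to 301 to 628 CPM in the 4 libraries and 262 to 946 elsewhere, and the cholangiocyte markers to 39.7 to 55.9 and 47.3 to 319 CPM. Hepatocyte markers summed to 29113, 29389 and 29249 CPM in control 2, portal 1 and portal 4, the 3 lowest values, and to 50095 in arterial 1. Their part in the members' values was not tested.

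**Figure D5:**
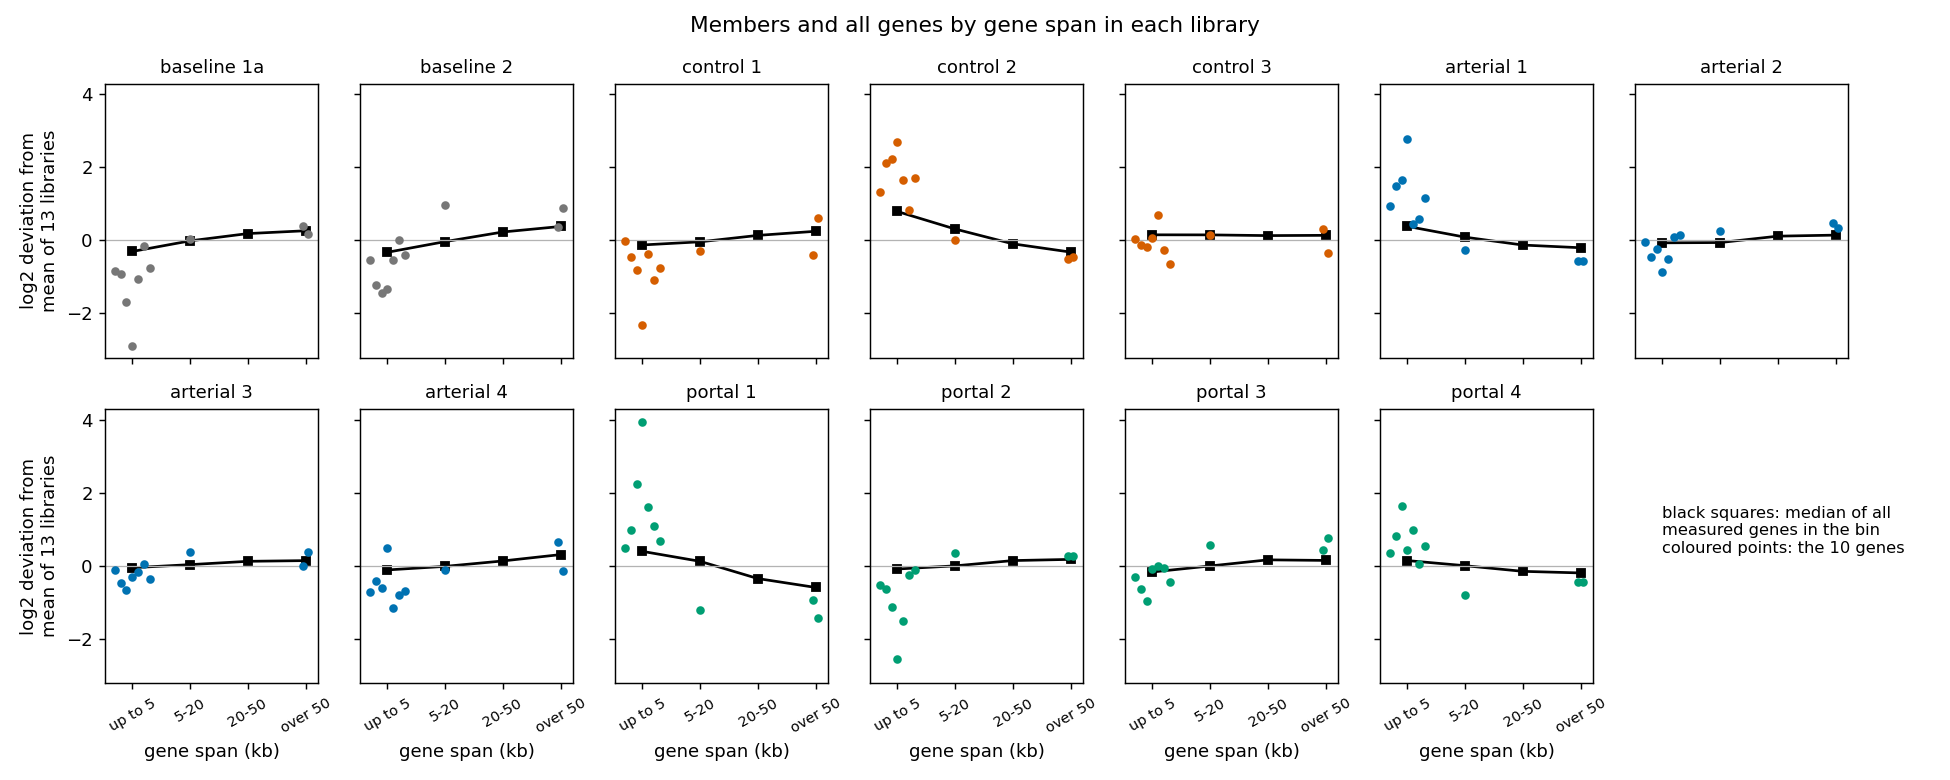
For each library, black squares give the median log2 deviation of all measured genes in 4 bins of gene span (kb), and coloured points give the 10 members in their bins. In control 2, arterial 1, portal 1 and portal 4 the line falls from short to long genes, from 0.79 to -0.32 in control 2, and most members lie further out than the line. The line is a median and does not show the spread of single genes in a bin.

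The genes whose pattern was most like that of single members, by Pearson r of log2 normalized counts over 13 libraries among 10210 genes, were GMFG for APOE (0.988), COX8A for APOC3 (0.992), CPN2 for APOA1 (0.963) and DAXX for APOA5 (0.950). They were SEC23IP for APOB (0.967), APOF for APOH (0.963), PFDN5 for APOM (0.979) and ZNF333 for MTTP (0.921), and a gene without a symbol for LCAT (0.923). The mean of the 10 members was followed most closely by DIPK1B (0.966), AKR1A1 (0.965), FTL (0.964), ECHS1 (0.957) and a gene without a symbol (0.956). APOF was the only apolipoprotein gene among those named.

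Other genes of the pathway were read from 6 lists, and 0 genes of any list passed the threshold in any comparison in edgeR. DESeq2 called 1, PPARA, in controls against baseline when fitted to those groups only, and 1, INSIG1, in portal against controls when fitted to 13 libraries. The counts of higher and lower genes that follow are counts of the sign of the log2 fold change. Of 7 other apolipoproteins tested, 5 were higher and 2 lower in controls against baseline, with a median of 0.27 on the log2 scale. APOA2, a major protein of HDL, had the lowest unadjusted p of them, with 2137 and 2691 normalized counts at baseline and 6671, 23419 and 3933 in controls (2.19 ± 0.73, edgeR unadjusted p = 0.00905, adjusted p = 0.978), and the log2 fold change was 1.17 without control 2. APOC4, a neighbour of APOE, had 2520.0 and 2197 at baseline and 1492, 42634 and 2778 in controls, so that control 2 alone was high, and its log2 fold change was 2.66 ± 1.27 with that library and -0.11 without it. Against controls, all 7 had negative fold changes in infused livers (median -0.71), among them APOA2 (-0.71 ± 0.48) and APOD (-2.16 ± 1.06), the latter at no more than 64.3 normalized counts in any library. Control 2 decided that count of signs: without it 3 of 7 were higher and 4 lower, with a median of -0.05, and APOA2 was at 0.33. Rows for APOC1 and APOC2 were not analysed here.

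Of 19 genes of particle assembly and secretion, 12 were higher and 7 lower in controls against baseline, with a median of 0.09. CIDEB, a lipid droplet protein that aids VLDL lipidation, gave 1.54 ± 0.67 (edgeR unadjusted p = 0.0359, adjusted p = 0.978) and 0.83 without control 2. PLIN2, the coat protein of hepatic lipid droplets, gave -2.33 ± 1.10, and -0.83 without baseline 2. Its normalized counts were 5454 and 26672 at baseline and 4906, 2483 and 2015 in controls. All 3 controls were below both baseline livers, the order of 16.3% of all genes. In infused livers against controls 9 were higher and 10 lower (median -0.04), or 12 and 7 without control 2 (median 0.12), with the carboxylesterase CES1 at 0.70 ± 0.43.

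Of 11 receptor and uptake genes tested, 8 were higher and 3 lower in controls against baseline (median 0.39). The lowest unadjusted p belonged to LRPAP1, the chaperone of LDL receptor family members, at 1.01 ± 0.48 on the log2 scale (edgeR unadjusted p = 0.0518, adjusted p = 0.978). Next was GPIHBP1, which anchors lipoprotein lipase, at 2.01 ± 1.19 (edgeR unadjusted p = 0.110, adjusted p = 0.978). GPIHBP1 had few reads, with 12.3 and 16.9 normalized counts at baseline and 55.4, 87.6 and 36.9 in controls. Without baseline 2 the list had 6 higher and 5 lower (median 0.17). In infused livers 1 was higher than in controls, SDC1, a heparan sulfate proteoglycan that takes up remnants (0.70 ± 0.38), and 10 were lower (median -0.37), with VLDLR at -1.21 ± 0.82, or -0.77 without control 3. VLDLR was also low, at 0 normalized counts in portal 1 and at most 202, in control 3. Leaving out control 2 gave 3 higher and 8 lower receptor and uptake genes in infused livers, with a median of -0.16. Of 16 genes of plasma remodelling, 5 were higher and 11 lower in controls against baseline (median -0.32). PON3, an HDL-bound lactonase, gave -1.64 ± 1.00, and -1.02 without baseline 2. All 3 controls were below both baseline livers for PON3, as they were for 16.3% of all genes. In infused livers against controls 10 were higher and 6 lower (median 0.11), with ANGPTL8 at 1.17 ± 0.65, or 0.72 without portal 4, and endothelial lipase, LIPG, at -0.89 ± 0.69, or -0.24 without control 1.

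Of 25 regulators, 14 were higher and 11 lower in controls against baseline (median 0.34). PPARA, the fatty acid receptor that lowers APOC3 transcription, had 1116 and 691 normalized counts at baseline and 311, 222 and 210.3 in controls (-1.87 ± 0.65, edgeR unadjusted p = 0.0115, adjusted p = 0.978). Its partner RXRA gave 1.56 ± 0.72 (edgeR unadjusted p = 0.0461, adjusted p = 0.978). In infused livers 12 were higher than in controls and 13 lower (median -0.09), and 14 higher and 11 lower without control 2 (median 0.11). INSIG1, which holds sterol regulatory element binding proteins in the endoplasmic reticulum, had 16723, 14277 and 11821 in controls and 1743 to 7418 in the 8 infused livers (-1.54 ± 0.35, edgeR unadjusted p = 0.000526, adjusted p = 1.00). All 8 were below every control, the order of 0.34% of all genes. SREBF2, the transcription factor of cholesterol synthesis, gave -0.87 ± 0.39 (edgeR unadjusted p = 0.0429, adjusted p = 1.00), and -0.51 without control 3.

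Of 17 other secreted plasma proteins, 6 were higher and 11 lower in controls against baseline, with a median of -0.58, against 1.17 for the 10 members. TF, the gene of transferrin, had 273546 and 351673 normalized counts at baseline and 119955, 34696 and 181446 in controls (-1.46 ± 0.90), and TTPA, the vitamin E transfer protein, gave -0.63 ± 0.49. Without baseline 2 the list had 8 higher and 9 lower with a median of -0.07, and TTPA was at 0.01. In infused livers against controls 7 were higher and 10 lower (median -0.03), with complement C3 at -0.47 ± 0.35, or -0.30 without control 2, and prothrombin, F2, at -0.39 ± 0.37, or -0.20 without control 1. Members and other plasma proteins of hepatocytes thus had medians of opposite sign in controls against baseline, a difference that was not tested. Of 9 macrophage markers tested, 8 were lower in infused livers than in controls, 4 of them at an unadjusted p under 0.05 and 0 after adjustment in edgeR. Of all 16481 genes tested, 353 had an edgeR unadjusted p under 0.05 in that comparison, in either direction, and 8591 were lower. Also lower were 7 of 8 endothelial, 7 of 10 stellate and stromal and 6 of 8 neutrophil markers tested. For hepatocyte, cholangiocyte, erythroid and enterocyte markers it was 6 of 12, 3 of 9, 2 of 3 and 1 of 4. At an edgeR unadjusted p under 0.05, 2 stellate and stromal, 1 endothelial and 1 hepatocyte marker were lower. The summed levels of the macrophage markers were 761 and 1495 CPM at baseline and 1391 to 2096 CPM in controls. They were 708 to 1258 CPM in arterial and 828 to 1055 CPM in portal livers. The part of these markers in the members' values was not tested.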

How the data were processed

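RNA was measured in 13 pig liver libraries after poly-A selection, with kits that do not mark strand. HISAT2 was used by the authors for mapping to Sscrofa11.1 and FeatureCounts, with Ensembl gene models, for counting, and the deposited values are raw counts, not normalized. Tool versions and the handling of reads with several matches are not given in the sources used here. Every column of the table is named in the sample labels, from which the groups were taken. No 2 libraries were copies of each other.

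Normalized counts are counts divided by DESeq2 1.42.0 size factors. Tests used R 4.3.3 and edgeR 4.0.16 (filterByExpr, TMM, quasi-likelihood test with the 4 groups in 1 fit, Benjamini-Hochberg adjustment over 16481 genes, threshold 0.05), checked on simulated data. Each member was also compared by an exact two-sided permutation test of log2(normalized count + 1) over libraries, in Python 3.11.15 with scipy 1.17.1. RefSeq spans and coordinates were matched by symbol, and no sequences are printed.

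The members and lists were chosen with earlier results of these data known. The genes named are all 10 members, the 2 genes of lowest unadjusted p in each pathway list for controls against baseline and for all infused livers against controls, and the genes most correlated with each member (1) and with the mean of the members (5), among genes with a mean normalized count of at least 100. Of these, 3 genes are not reported here. Genes without a row under their symbol were not analysed here. Alternatives were DESeq2, other normalizations and filters, all 11 livers at 6 h against baseline, the replicate number as a block, each library left out in turn and, chosen after seeing the data, the 4 libraries that stand apart left out together and the pathway lists with libraries left out. Same-numbered libraries of different groups deviated from their group means with correlations between -0.38 and 0.40. These cannot settle whether libraries share an animal, since the 4 libraries that stand apart weigh on the deviations. Baseline 1a was also not compared with any library. As the labels give no pairing, the numbers were not taken to pair animals.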

Additional observations from a re-analysis of the deposited data

Results flagged for a closer look

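In 22 sets of 4 libraries (10 genes and their summed share, in the arterial and in the portal group), 6 held a library far from its group by Dixon's criterion. The criterion was applied to normalized counts and shares as they are, not to their logs. Chance meets it in about 1 of 20 groups only where values are normally distributed, which was not tested for these counts. The number of sets that met it is therefore not set against that rate. In the arterial group, arterial 1 stood apart for APOE with a normalized count of 1279456, for APOC3 with 635856, for APOA4 with 136119 and for the summed share of the 10 genes with 9.02% of all counts. In the portal group, portal 1 stood apart for APOA4 with 305147 and for LCAT with 8526. These sets share libraries and are not independent of each other. Groups of 2 and 3 libraries were not tested in this way, so control 2, which had the highest APOE, APOA1, APOA5 and APOM counts of all libraries, was not eligible.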

How the results depend on the processing

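No member passed the threshold under any alternative, in edgeR or DESeq2. The smallest adjusted p of a member was 0.072, for APOA4 in controls against baseline with DESeq2 fitted to those 2 groups only. The number of genes called over the whole table was 0 in edgeR and rose with DESeq2 fitted to 13 libraries to 6 in controls against baseline, 2 in all infused against controls (MTUS1 and CCL3L1), 1 in arterial against controls (a gene without a symbol), 3 in portal against controls (INSIG1, DDIT4L and PCSK1N) and 1 in arterial against portal (DDIT4L). With DESeq2 fitted only to the groups compared it was 169, 2 (MTUS1 and CCL3L1), 0, 3 (genes without a symbol) and 0. With no filter on low counts edgeR called 30, 19, 11, 14 and 5 (MX1, RSAD2, a microRNA precursor and 2 genes without a symbol). With the 4 libraries that stand apart left out, an alternative chosen after seeing the data, it called 1 gene without a symbol in all infused and 1 in arterial livers against controls. These genes were named after their values were seen. The cause of these differences was not tested.

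Of the members' log2 fold changes, signs turned mostly where values were near 0 or where 1 library was left out. In controls against baseline, LCAT was -0.00048 without mitochondrial and small RNA genes, and APOM was -0.12 and LCAT -0.55 with the 4 libraries left out. Leaving out 1 library at a time moved APOM from -0.11 to 1.52 and LCAT from -0.53 to 0.39, the lower ends without control 2. In all infused against controls, APOB was 2.9e-05 with RLE, 0.020 with upper quartile normalization, 2.7e-05 with DESeq2 over 13 libraries, 0.0077 with at least 10 counts in every library and 0.15 with the 4 libraries left out, and APOM was then 0.44. Leaving out 1 library at a time gave -1.09 to 0.54 for APOE, -0.72 to 1.17 for APOC3, -0.75 to 0.041 for APOA1, -0.85 to 2.33 for APOA4, -0.23 to 0.45 for APOB, -0.13 to 0.17 for APOH, -0.76 to 0.88 for APOM and -0.18 to 0.75 for LCAT. Control 2 gave the upper end for APOE, APOC3, APOA1, APOA4, APOM and LCAT. In arterial against portal, APOE was -0.0087 with RLE and with DESeq2 over 13 libraries, -0.010 with upper quartile normalization and with DESeq2 over those groups, and -0.038 with at least 10 counts in every library, where APOM was -0.015. With the 4 libraries left out, APOC3 was 0.53, APOA4 0.70, APOA5 0.0032, APOB -0.34 and APOH -0.29. Leaving out 1 library at a time gave -0.72 to 0.30 for APOE, -0.30 to 0.32 for APOA1, -2.19 to 1.55 for APOA4, -0.25 to 0.44 for APOB, -0.090 to 0.51 for APOH, -0.45 to 0.26 for APOM and -0.42 to 0.13 for LCAT, where arterial 1 and portal 1 gave most ends. The difference of APOA5 in arterial livers against controls kept its sign, from -1.45 to -0.52. The other differences of single routes against controls were recomputed only as counts of signs.

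With the replicate number as a block (replicate block), 0 genes were called in each of the 5 comparisons, APOA4 was -1.15 in all infused against controls, and APOE was -0.015 and APOM -0.038 in arterial against portal. The mean summed share at baseline was 2.32% of counts outside the mitochondrial genome and 1.33% without APOE. Counting error limits little here, since every member had at least 1330 reads in every library, but the part of depth in the members' values was not tested. Having 2 to 4 libraries a group and the 4 that stand apart limits every comparison.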
